A study of Mus musculus with 2 samples.

Results

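The immunoglobulin constant genes and the J chain gene were followed in 2 single-cell libraries from the mouse colon. They were 10 of the 31053 gene rows of both matrices: the heavy-chain genes Igha, Ighm, Ighd, Ighg1, Ighg2b, Ighg2c and Ighg3, the light-chain genes Igkc and Iglc1, and Jchain. The rows were taken by their symbols alone. The values are raw unique molecular identifier (UMI) counts, which count captured 3′ ends of polyadenylated RNA and are not scaled to gene length.

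An antibody is built from paired heavy and light chains, and the heavy-chain constant gene that is used sets its class. A naive B cell makes IgM and IgD from the same primary transcript, and class switching later joins its variable region to a downstream constant gene such as Igha. Plasma cells of the gut lamina propria are known for secreting IgA joined by the J chain, a form that epithelial cells carry into the lumen.

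The study profiled colonic lamina propria cells of male C57BL/6 mice aged 6 to 8 weeks, kept specific pathogen-free, with a droplet-based 3′ kit. One group was deficient in Lncly6c (1700016P04Rik), a long noncoding RNA gene, and the other was wild type, with 1 library each. Per the labels, the deletion was made on a C57BL/6J background by injecting zygotes with Cas9 mRNA and guide RNAs that cut before its first exon and after its second, and the breaks were joined by non-homologous end joining. The labels do not say how many mice went into a library. The libraries are called deficient-labelled and wild-type-labelled here, because the deposited file names carry the opposite genotype words and the deleted gene had 0 UMIs in both, so it checks neither label.

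In all, 6133 barcodes with 54773076 UMIs came from the deficient-labelled library and 3020 barcodes with 23384895 UMIs from the wild-type-labelled library. After filters on genes, UMIs and mitochondrial share, 5890 and 2610 barcodes were kept, with medians of 7849 and 6205 UMIs; 7 barcode sequences occurred in both libraries. Cells were assigned to types by markers that include no immunoglobulin gene and not Jchain. With 1 library per genotype there is no replicate check, so no test was made and all intervals below are 95% intervals of counting error only.

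All 10 members lie on GRCm38, the mm10 build, as annotated in GENCODE M21. The heavy-chain genes stand in a row on the minus strand of chromosome 12, from Igha (chr12:113254830-113260236) through Ighg2c (chr12:113285325-113288932), Ighg2b (chr12:113302965-113307933), Ighg1 (chr12:113325240-113330523), Ighg3 (chr12:113356224-113361232) and Ighd (chr12:113406604-113416324) to Ighm (chr12:113418558-113422730). Igkc lies at chr6:70726435-70726966 on the plus strand, Iglc1 at chr16:19061618-19062071 on the minus strand and Jchain at chr5:88519809-88527891 on the minus strand.

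The lambda genes are shown because the coding sequences of Iglc2 and Iglc3 differ at few bases. Each line gives the last 60 coding bases, 5′ to 3′ on the gene's own strand, from GENCODE M21 transcripts; capitals mark the 13 positions at which the 3 genes are not all alike.
Iglc1: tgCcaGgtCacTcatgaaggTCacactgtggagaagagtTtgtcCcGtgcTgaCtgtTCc
Iglc2: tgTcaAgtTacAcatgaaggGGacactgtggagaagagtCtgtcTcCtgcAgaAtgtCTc
Iglc3: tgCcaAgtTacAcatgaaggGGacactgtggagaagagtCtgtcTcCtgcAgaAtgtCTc
Over the whole coding sequence Iglc2 and Iglc3 were 96.2% identical, while Iglc1 was 73.4% identical to Iglc2 and 74.5% to Iglc3. Within the stretch shown, Iglc1 differs from Iglc2 at 13 positions and Iglc2 from Iglc3 at 1. UMIs from coding sequence of Iglc2 and Iglc3 may therefore be split uncertainly between those 2 genes, and lambda is given below both as Iglc1 and as the sum of all 3. The untranslated 3′ sequences were not compared.

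Plasma cells were more frequent in the deficient-labelled library, and every one of them expressed Igha as its main heavy chain. The gate held 43 plasma cells of 5890 barcodes in the deficient-labelled library, a share of 0.730% (0.529 to 0.982), against 5 of 2610 in the wild-type-labelled library, 0.192% (0.0622 to 0.446). B cells numbered 513 (8.71%, 8.00 to 9.46) in the deficient-labelled library and 82 (3.14%, 2.51 to 3.88) in the wild-type-labelled library. The median plasma cell carried 7 of the 8 plasma markers in both libraries, and its depth was 21876 UMIs in the deficient-labelled library and 25940 UMIs in the wild-type-labelled library. Of the B cell markers, Cd79a was at 277 CPM (UMIs per 1000000 of the class) in deficient-labelled and 189 CPM in wild-type-labelled plasma cells, Cd79b at 166 and 168 CPM and Fcrla at 36.0 and 41.9 CPM. Ms4a1, Bank1, Cd22 and Pax5 were at no more than 4.11 CPM in deficient-labelled and 6.99 CPM in wild-type-labelled plasma cells, and Pax5 had 0 UMIs in both. Of the 8 markers of plasmacytoid dendritic cells, Siglech, Klk1 and Cox6a2 had 0 UMIs in plasma cells of both libraries. The others were present there, with Ly6d at 792 and 1621 CPM, Bst2 at 600 and 678 CPM, Tcf4 at 205 and 342 CPM, Runx2 at 29.8 and 34.9 CPM and Ccr9 at 16.5 and 217 CPM in deficient-labelled and wild-type-labelled plasma cells. Their part in the members' values was not tested. A further 14 deficient-labelled barcodes with at least 100 Igha UMIs had markers of several lineages and were left out as mixed, against 0 such barcodes in the wild-type-labelled library. Counting as plasma cells the 9 mixed barcodes whose plasma cell score was highest would make them 52 and 5.

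**Figure D1:**
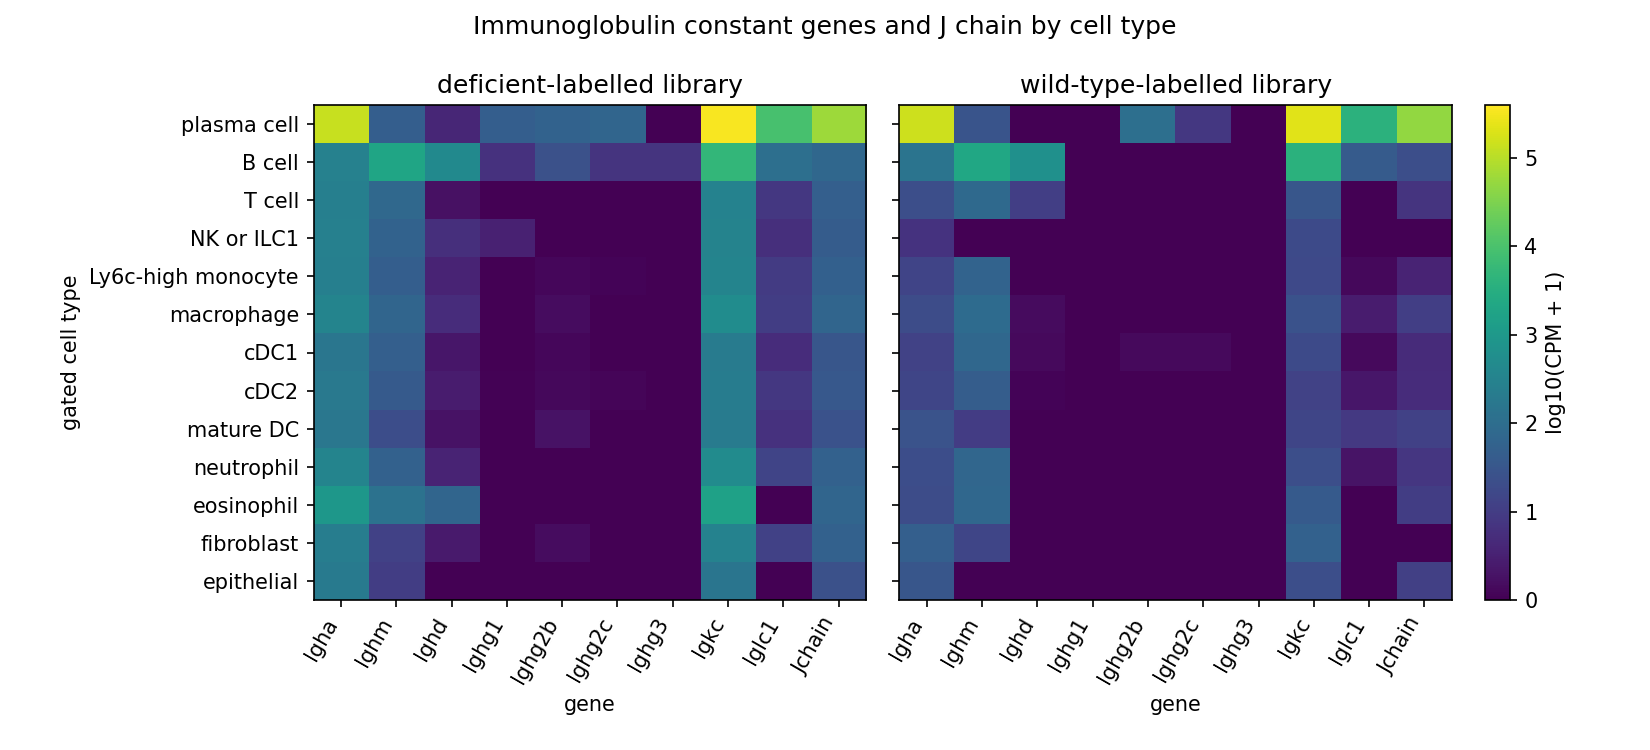
Level of each member as log10(CPM + 1), where CPM is the UMIs of a gene per 1000000 UMIs of the class, in 13 gated cell types (rows) of the deficient-labelled library (left) and the wild-type-labelled library (right). Igha, Igkc and Jchain were highest in plasma cells, Ighm and Ighd in B cells, and Igha and Igkc were above 100 CPM in every deficient-labelled type drawn.

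Igha, the IgA heavy chain, took 99.8% of the heavy-chain constant UMIs of plasma cells in both libraries (99.8 to 99.9 in each). All 43 deficient-labelled plasma cells and all 5 wild-type-labelled plasma cells had most of their heavy-chain UMIs in Igha, shares with lower limits of 91.8% and 47.8%. Per cell, Igha ran from 5 through a median of 2961 to 7405 UMIs in the deficient-labelled library. The wild-type-labelled plasma cells held 6759, 5739, 5177, 3023 and 1048 Igha UMIs, within the range of the deficient-labelled cells. Summed over the class, Igha stood at 134667 CPM in deficient-labelled plasma cells and 151963 CPM in wild-type-labelled plasma cells, a log2 ratio of -0.17 (-0.20 to -0.15), short of 1.5-fold. That difference turned to 0.17 when immunoglobulin UMIs were left out of the denominator.

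The lowest deficient-labelled cells were barcodes of few UMIs. The cell with 5 Igha UMIs had 1146 UMIs in all, 109 of them Igkc, and 3 plasma markers, and the next had 55 Igha UMIs of 583. All 5 wild-type-labelled plasma cells had at least 20821 UMIs.

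Other heavy-chain genes appeared in single plasma cells as groups of UMIs beside a larger Igha count. Ighg2c, an IgG2c heavy chain, had 36 and 29 UMIs in 2 deficient-labelled cells and none in the others. Ighg2b had 26, 25 and 4 UMIs in 3 deficient-labelled cells and 16 in 1 wild-type-labelled cell. Ighg1 had 26, 10 and 10 UMIs in 3 deficient-labelled cells and 0 in all 5 wild-type-labelled cells. In all, 8 of 43 deficient-labelled plasma cells and 1 of 5 wild-type-labelled plasma cells had any IgG UMI. The cells with 36 and 29 Ighg2c UMIs held 6645 and 7405 Igha UMIs, the 2 highest Igha counts of that library. Ighm was at 40, 3 and 1 UMIs in 3 deficient-labelled cells and at 4 UMIs in 1 wild-type-labelled cell, Ighd at no more than 1 UMI in any plasma cell, and Ighg3 at 0 in all of them. Ighe, the IgE heavy chain, which is not among the 10, had 0 UMIs in deficient-labelled plasma cells and 14 UMIs in 1 wild-type-labelled plasma cell, the one with the most Igha.

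Igkc, the kappa light chain, was the most abundant member in plasma cells, and lambda use was rare. Igkc ran from 62 through a median of 7122 to 26436 UMIs per deficient-labelled plasma cell; the wild-type-labelled cells held 11999, 7372, 4693, 5561 and 1778, in order of falling Igha. It took 96.9% of the light-chain UMIs in deficient-labelled plasma cells and 97.2% in wild-type-labelled plasma cells. A single plasma cell was lambda: it held 8523 Iglc1 UMIs, 62 Igkc UMIs and 2880 Igha UMIs. Lambda cells were thus 1 of 43 (2.33%, 0.0589 to 12.3) in the deficient-labelled library and 0 of 5 in the wild-type-labelled library, where the interval reaches 52.2%.

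Low lambda counts were present in most kappa plasma cells as well. Iglc1 was found in 37 of 43 deficient-labelled cells, with a median of 10 UMIs, and in all 5 wild-type-labelled cells, at 309, 56, 15, 56 and 134 UMIs. The variable segment Iglv1 accompanied it, with 546 UMIs in 34 deficient-labelled plasma cells and 21 UMIs in 4 wild-type-labelled plasma cells. The most Iglv UMIs, 108, were found in a kappa cell with 26436 Igkc UMIs, while the lambda cell had 58. As a class, Iglc1 stood at 9382 CPM in deficient-labelled and 3983 CPM in wild-type-labelled plasma cells, a log2 ratio of 1.24 (1.11 to 1.36). The lambda cell supplied 93.4% of the deficient-labelled Iglc1 UMIs, and without the highest cell of each library the levels were 631 and 2511 CPM and the log2 ratio was -1.99 (-2.20 to -1.78).

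Jchain, the small protein that links IgA dimers, was found in every plasma cell. It ran from 6 through a median of 1319 to 3945 UMIs in deficient-labelled cells, and the wild-type-labelled cells had 2378, 1965, 1087, 986 and 478 UMIs. Its level was 60048 CPM in deficient-labelled and 48176 CPM in wild-type-labelled plasma cells, a log2 ratio of 0.32 (0.28 to 0.35), short of 1.5-fold. With clusters in place of the gate the ratio was 0.15, and with doublets removed it turned to -0.074. Immunoglobulin genes and Jchain together made up 10.6% to 83.2% of a deficient-labelled plasma cell's UMIs, with a median of 57.1%, and 10.8% to 58.7% of a wild-type-labelled cell's, with a median of 53.1%. Per Igha UMI, plasma cells held 2.54 Igkc and 0.446 Jchain UMIs in the deficient-labelled library, against 1.44 Igkc and 0.317 Jchain UMIs in the wild-type-labelled library.

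**Figure D2:**
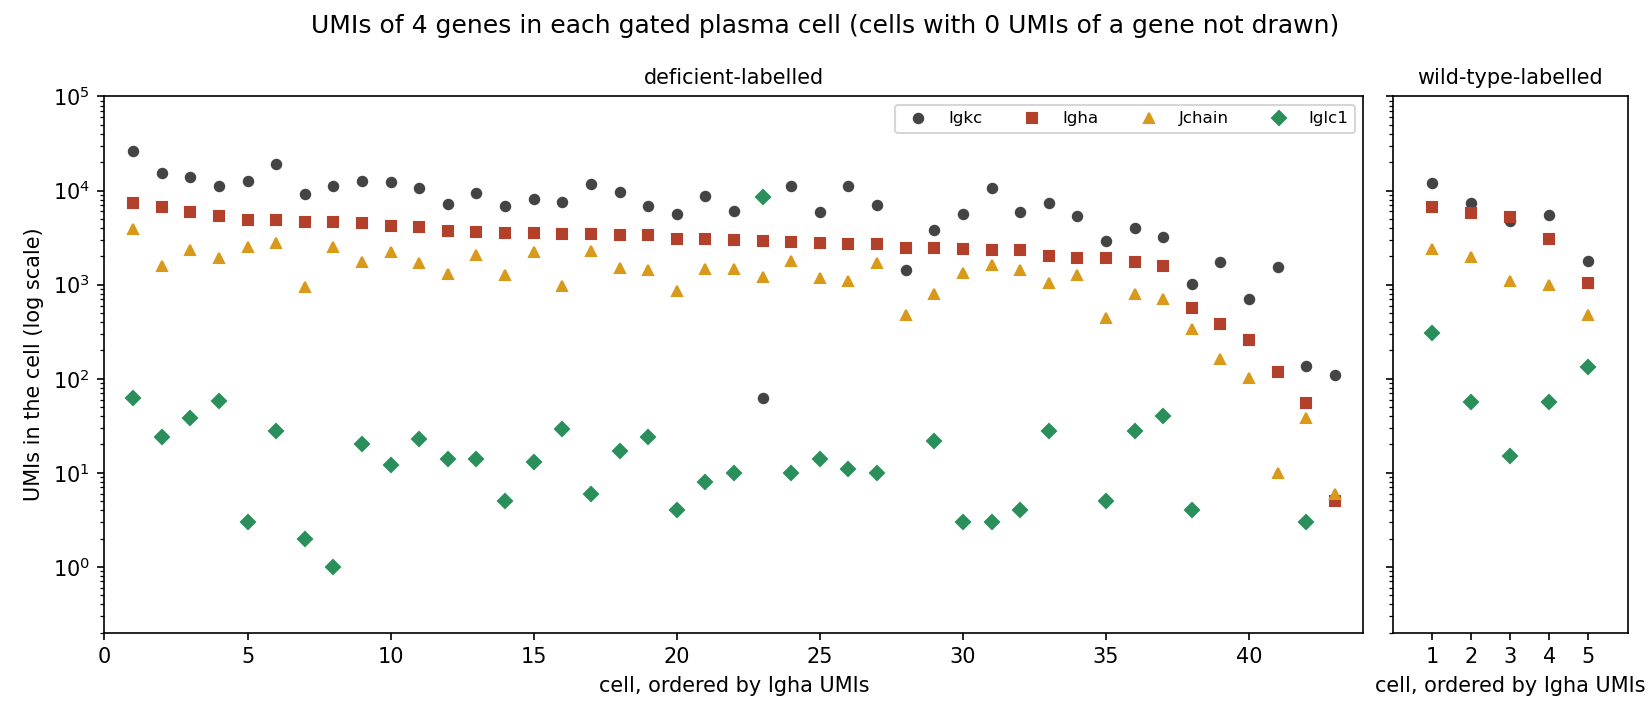
UMIs of Igkc, Igha, Jchain and Iglc1 (log scale) in each gated plasma cell, ordered by Igha, in the deficient-labelled library (left, 43 cells) and the wild-type-labelled library (right, 5 cells). The cell of rank 23 in the left panel is the lambda cell, with 8523 Iglc1 and 62 Igkc UMIs.

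Of the 10 members, 6 had at least 50 UMIs in plasma cells of both libraries together; 3 were more than 1.5-fold higher in the deficient-labelled library (Ighg2c, Igkc and Iglc1, the last only with the lambda cell) and 1 was lower (Ighg2b, found in 3 cells and 1 cell). Among the 1592 genes measured in the same way, 11.1% were higher and 34.2% lower, with a median log2 ratio of -0.36. Igkc was at 342380 CPM in deficient-labelled and 219446 CPM in wild-type-labelled plasma cells (log2 ratio 0.64, 0.63 to 0.66), and it fell short of 1.5-fold with clusters in place of the gate (0.49), with doublets removed (0.29) and with the mixed barcodes added (0.52). Ighg2c had 65 UMIs in deficient-labelled and 1 UMI in wild-type-labelled plasma cells, a ratio of 9.57 with a counting interval of 1.66 to 384. The wild-type-labelled values rest on 5 cells, and removing doublets by score took away 2 of them.

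Most plasma cells had a leading heavy-chain and a leading kappa variable segment. Single segments recurred between cells, while their pairs mostly differed. At least 3 UMIs of an Ighv segment were found in 35 of 43 deficient-labelled cells and 4 of 5 wild-type-labelled cells, and in 33 and 4 of these the leading segment held over 90% of the Ighv UMIs. Both an Ighv and an Igkv segment were called in 32 deficient-labelled cells, which held 28 different pairs, and in 4 wild-type-labelled cells, which held 4. Ighv1-64 with Igkv10-94 occurred in 3 deficient-labelled cells, and Ighv1-58 with Igkv9-120 and Ighv3-6 with Igkv3-4 in 2 each. No pair occurred in both libraries. Over the class, the Ighv segments with the most UMIs were Ighv11-2 (123), Ighv1-76 (99) and Ighv1-26 (84) in the deficient-labelled library and Ighv3-6 (69), Ighv7-1 (28) and Ighv1-7 (13) in the wild-type-labelled library. Each of these ranks rests mainly on 1 cell, which held 122, 80 and 81 of the UMIs of the 3 deficient-labelled segments and all those of the wild-type-labelled segments. A shared pair of segments is not a shared rearrangement, since the junction was not read here.

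B cells expressed Ighm and Ighd. Ighm, the IgM heavy chain, was at 1979 CPM in deficient-labelled B cells (1919 to 2041) and 2169 CPM in wild-type-labelled B cells (2024 to 2322). It was found in 490 of 513 deficient-labelled B cells and 78 of 82 wild-type-labelled B cells, with medians of 6 and 8 UMIs and highest values of 118 and 50. Ighd, the IgD heavy chain, was at 448 CPM in deficient-labelled and 654 CPM in wild-type-labelled B cells, a log2 ratio of -0.55 (-0.75 to -0.34), and was found in 359 and 69 of them. At a common depth of 1000 UMIs per cell, Ighd was found in 34.7% of 510 deficient-labelled and 45.7% of 81 wild-type-labelled B cells, which had medians of 3490 and 4390 UMIs before thinning; 3 cells and 1 cell were too shallow to be thinned.

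Few B cells were called for a switched heavy chain. Among B cells with at least 5 heavy-chain UMIs, Ighm and Ighd made up over 50% in 398 of 413 deficient-labelled cells (96.4%) and in 72 of 74 wild-type-labelled cells (97.3%). Igha held that place in 7 deficient-labelled cells (1.69%, 0.684 to 3.46) and 2 wild-type-labelled cells (2.70%, 0.329 to 9.42). The Igha counts in those 7 were 25, 17, 12, 8, 5, 5 and 3 UMIs, and in the other 2 they were 23 and 17. The cell with 25 Igha UMIs also held 23 Ighm UMIs, and the cell with 3 also held 1 Ighm and 1 Ighd UMI. IgG genes led in 4 deficient-labelled cells, each through Ighg2b or Ighg2c, with 5 to 10 IgG UMIs a cell, and in 0 of 74 wild-type-labelled cells, which allows a share of up to 4.86%. The remaining 4 deficient-labelled cells were not called. When a call needed 80% of heavy-chain UMIs, 5 of the 413 deficient-labelled cells were called for Igha and 3 for IgG. In the wild-type-labelled library 2 of 74 were called for Igha at that cut. IgG UMIs also occurred in B cells that IgG did not lead: all 11 Ighg1 UMIs of the deficient-labelled B cells were in 1 cell, and the highest Ighg2b count was 10 UMIs in a cell. Ighg3 had 12 UMIs in 7 deficient-labelled B cells, with no more than 3 in a cell, which were 92.3% of its UMIs in that library, and 0 UMIs in all kept wild-type-labelled barcodes.

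Outside the cells called for Igha, B cells of both libraries held more Igha than the pooled types outside the B lineage. In both libraries that level lay within the range of the single types there. The B cells not called for Igha held 258 Igha CPM in the deficient-labelled library (236 to 281) and 35.7 CPM in the wild-type-labelled library (19.0 to 61.1). In gated types outside the B lineage Igha was at 222 CPM (217 to 226) in the deficient-labelled library and 15.4 CPM (13.7 to 17.2) in the wild-type-labelled library. Plasmacytoid dendritic cells, 11 deficient-labelled and 4 wild-type-labelled, were grouped with plasma and B cells in the gating and are not in these pools. Among types of at least 100 deficient-labelled cells Igha ran from 157 to 337 CPM. Among wild-type-labelled types of at least 10 cells it ran from 5.67 CPM in NK or ILC1 cells, from 1 UMI, to 47.5 CPM in fibroblasts. Fibroblasts, with 7 Igha UMIs, were the only such type above the wild-type-labelled B cells. After thinning to 1000 UMIs, an Igha UMI was found in 23.3% of deficient-labelled B cells and 22.4% of deficient-labelled cells outside the B lineage, whose median depths were 3490 and 8921 UMIs. In the wild-type-labelled library the thinned shares were 4.94% of B cells (1.36 to 12.2) and 1.35% of cells outside the B lineage (0.875 to 1.99), and these intervals overlap. The shares of B cells, thinned or not, include the cells called for Igha. Before thinning, an Igha UMI was found in 61.2% of deficient-labelled and 12.2% of wild-type-labelled B cells, against 81.3% and 12.7% of cells outside the B lineage. An Igha UMI in a B cell was therefore no more frequent than outside the B lineage in the unthinned data, where B cells were the shallower in both libraries. The summed Igha level of B cells was above the pooled level there in both libraries. This held for the B cells not called for Igha and for all B cells, at 288 CPM in the deficient-labelled and 139 CPM in the wild-type-labelled library.

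Light chains of B cells were mostly kappa, and Iglc2 was their leading lambda gene. Igkc was at 5059 CPM in deficient-labelled and 3794 CPM in wild-type-labelled B cells (log2 ratio 0.42, 0.34 to 0.50). Lambda held over 50% of light-chain UMIs in 17 of 479 deficient-labelled B cells (3.55%, 2.08 to 5.62) and 4 of 75 wild-type-labelled B cells (5.33%, 1.47 to 13.1) with at least 5 such UMIs. When a call needed 80% of light-chain UMIs, lambda cells were 3 of 479 (0.626%, 0.129 to 1.82) in the deficient-labelled and 3 of 75 (4.00%, 0.833 to 11.2) in the wild-type-labelled library. Iglc2 made up 7.15% of light-chain UMIs in deficient-labelled and 9.39% in wild-type-labelled B cells, Iglc3 1.88% and 2.41%, and Iglc1 1.91% and 0.903%. In plasma cells Iglc1 led the lambda genes, with 2.66% in the deficient-labelled and 1.76% in the wild-type-labelled library, against 0.344% and 0.861% for Iglc2. The lambda cell held 8523 of the 9123 deficient-labelled Iglc1 UMIs but 19 of the 1181 Iglc2 UMIs, so without it Iglc2, not Iglc1, was the larger in that library.

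In B cells, 6 of the 10 members had at least 50 UMIs; Igha, Iglc1 and Jchain were more than 1.5-fold higher in the deficient-labelled library and 0 were lower, where 13.3% and 8.62% of 5125 genes were. Jchain had 150 UMIs in deficient-labelled B cells (73.0 CPM) and 8 in wild-type-labelled B cells (20.9 CPM), and cells outside the B lineage held 42.7 and 5.12 CPM. Of the 8 wild-type-labelled UMIs, 7 came from 1 B cell, the one with 23 Igha UMIs.

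Igha, Igkc and Jchain were found in all 11 types outside the B lineage that had at least 10 cells in both libraries, except for Jchain in wild-type-labelled NK or ILC1 cells and fibroblasts, and were far higher there in the deficient-labelled library. Igha was at 222 CPM in the deficient-labelled and 15.4 CPM in the wild-type-labelled library, a log2 ratio of 3.85 (3.68 to 4.02), or 14.4-fold. It was higher in 11 of 11 types, by 4.84-fold in fibroblasts to 49.1-fold (8.65 to 1955) in NK or ILC1 cells, where the wild-type-labelled library had 1 Igha UMI. For Igkc the levels were 302 CPM in the deficient-labelled and 16.3 CPM in the wild-type-labelled library (18.6-fold), and for Jchain 42.7 and 5.12 CPM (8.35-fold). Of the 6 members measured outside the B lineage, 5 were more than 1.5-fold higher and 0 lower, where 12.4% of 12596 genes were higher and 4.52% lower. The plasma cell gate held 43 barcodes in the deficient-labelled and 5 in the wild-type-labelled library, and the part of that difference in these levels was not tested.

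The lowest deficient-labelled Igha level of the 11 types, 157 CPM, was above the highest wild-type-labelled level, 47.5 CPM in fibroblasts. The highest deficient-labelled level, 911 CPM (498 to 1528), came from 14 UMIs in 15 eosinophils. In the deficient-labelled library it ran, among types of at least 100 cells, from 157 CPM in cDC1 (148 to 166) through 168 in mature DC and 179 in cDC2, whose intervals overlap, to 330 in macrophages and 337 in neutrophils (282 to 400), which overlap too. In the wild-type-labelled library it ran, among types of at least 50 cells, from 11.6 CPM in cDC1 (7.80 to 16.5) to 26.3 CPM in mature DC (16.3 to 40.2). An Igha UMI was present in 81.3% of deficient-labelled and 12.7% of wild-type-labelled cells outside the B lineage. At least 20 Igha UMIs were present in 5 of these 4328 deficient-labelled cells and in 0 of the 1923 wild-type-labelled cells.

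In the deficient-labelled library the ratios of Igkc and Jchain to Igha in those types were below those of its plasma cells. Igkc per Igha UMI ran from 0.762 in epithelial cells to 1.59 in macrophages over the 12 deficient-labelled types with at least 20 Igha UMIs, with a pooled value of 1.36 (1.33 to 1.40), against 2.54 in plasma cells. Jchain per Igha UMI was 0.193 (0.183 to 0.203) in the deficient-labelled types outside the B lineage, against 0.446 in plasma cells. In the wild-type-labelled library Igkc per Igha UMI was 1.06 (324 and 307 UMIs) outside the B lineage against 1.44 in plasma cells, and Jchain per Igha UMI was 0.332 (0.263 to 0.417) against 0.317. Gated plasma cells made up 72.0% of the deficient-labelled and 98.2% of the wild-type-labelled Igha UMIs of kept barcodes. Cells outside the B lineage held 5.34% and 1.39%, and mixed barcodes 21.4% and 0.104%.

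Ighm was spread differently. It was found outside the B lineage at 44.5 CPM in the deficient-labelled library (42.5 to 46.5) and 55.9 CPM in the wild-type-labelled library (52.7 to 59.3), a log2 ratio of -0.33 (-0.44 to -0.22), while Igha differed 14.4-fold between the same cells. These UMIs were 27.7% of all Ighm UMIs of kept barcodes in the deficient-labelled library and 53.5% in the wild-type-labelled library. At 1000 UMIs per cell, an Ighm UMI was found in 4.77% of deficient-labelled and 6.04% of wild-type-labelled phagocytes, the summed Ly6c-high monocytes, macrophages, cDC1 and cDC2, with median depths of 9811 and 11818 UMIs. In B cells it was found in 76.3% and 80.2% at that depth. Without thinning, 1107 of 3361 deficient-labelled and 536 of 1305 wild-type-labelled phagocytes had an Ighm UMI, and none had more than 15 and 7 of them. Whether these UMIs came from free RNA was not tested.

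Between types Ighm had an order of its own. In the wild-type-labelled library Ighm was at 90.7 CPM in macrophages (79.0 to 103.7), 79.4 in T cells, 73.3 in cDC1, 67.8 in neutrophils and 59.6 in monocytes, and at 44.1 in cDC2 (39.7 to 48.7). It was at 8.77 CPM in wild-type-labelled mature DC (3.53 to 18.1) and at 0 UMIs in 38 wild-type-labelled NK or ILC1 cells, where 3 UMIs would be 17 CPM. In the deficient-labelled library the same types ran from 77.8 CPM in T cells and 66.3 in macrophages through 55.2 in NK or ILC1 cells, 53.6 in neutrophils, 48.0 in cDC1, 45.4 in monocytes and 37.0 in cDC2 to 19.9 in mature DC (14.5 to 26.8), with 11 in fibroblasts. Mature DC were thus lowest of the 5 dendritic and monocyte-macrophage types in both libraries, although their cells were among the deepest, with medians of 12811 and 15115 UMIs.

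**Figure D3:**
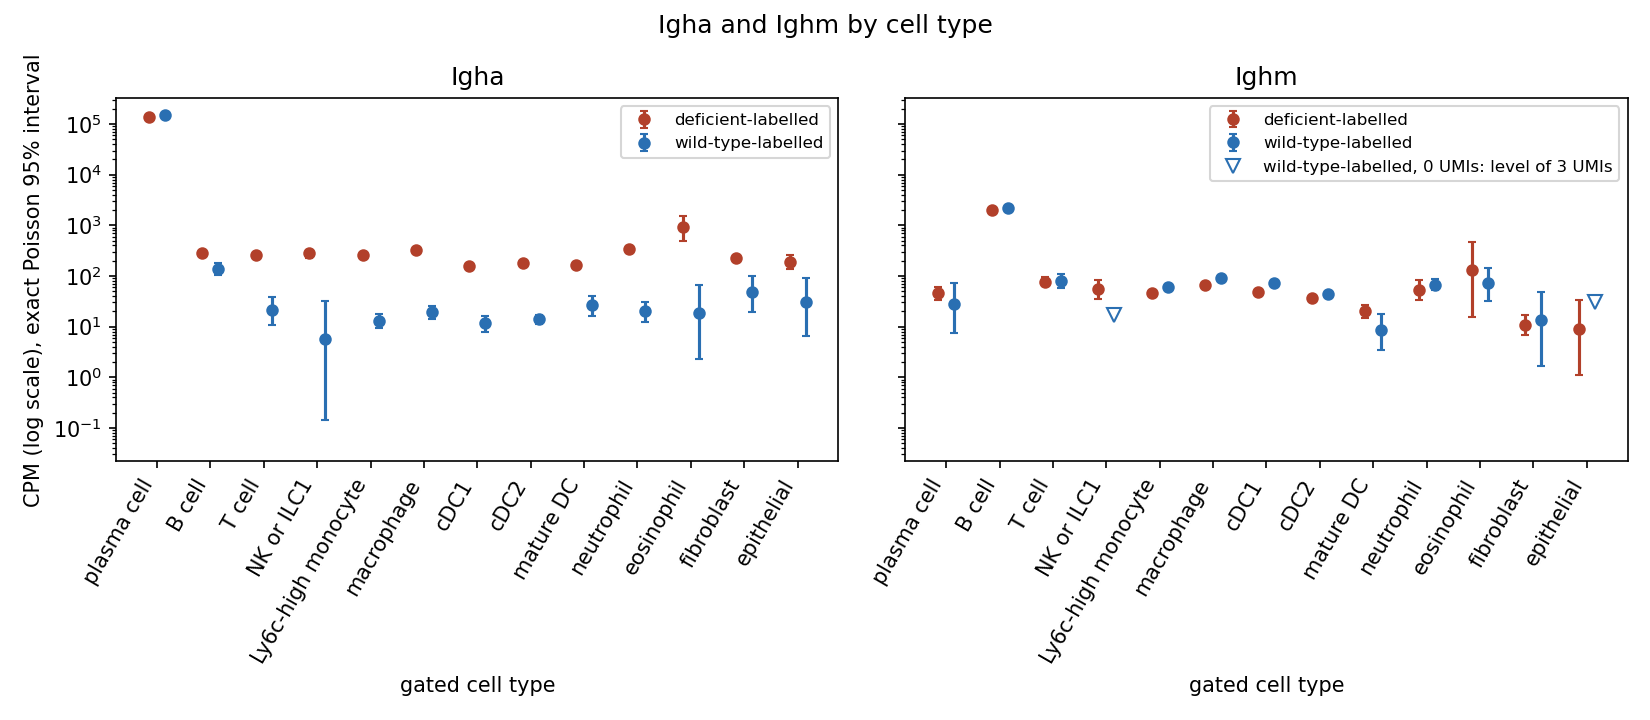
CPM (log scale) of Igha (left) and Ighm (right) in 13 gated cell types, for the deficient-labelled library (red, drawn left in each pair) and the wild-type-labelled library (blue), with exact Poisson 95% intervals; open triangles mark the level of 3 UMIs where 0 were found. Outside plasma and B cells Igha was separated by library, at 222 and 15.4 CPM over those cells, while Ighm was at 44.5 and 55.9 CPM.

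Beside Ighm, phagocytes held fewer Ighd UMIs than B cells did. Ighd per Ighm UMI was 0.226 (0.210 to 0.243) in deficient-labelled B cells and 0.302 (0.261 to 0.348) in wild-type-labelled B cells. In phagocytes it was 0.0484 (0.0384 to 0.0603) in the deficient-labelled library, from 84 Ighd UMIs, and 0.00305 (0.000627 to 0.00893) in the wild-type-labelled library, from 3 Ighd UMIs beside 985 of Ighm. In the wild-type-labelled library phagocytes held 3.85 Ighm UMIs per Igkc UMI (3.35 to 4.43), where B cells held 0.572 (0.524 to 0.623). In the deficient-labelled library, with its high Igkc in all types, the same ratio was 0.153 in phagocytes and 0.391 in B cells. T cells held 0.0103 Ighd per Ighm UMI (0.000258 to 0.0588) in the deficient-labelled library and 0.122 (0.0376 to 0.308) in the wild-type-labelled library, from 1 and 5 Ighd UMIs.

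**Figure D4:**
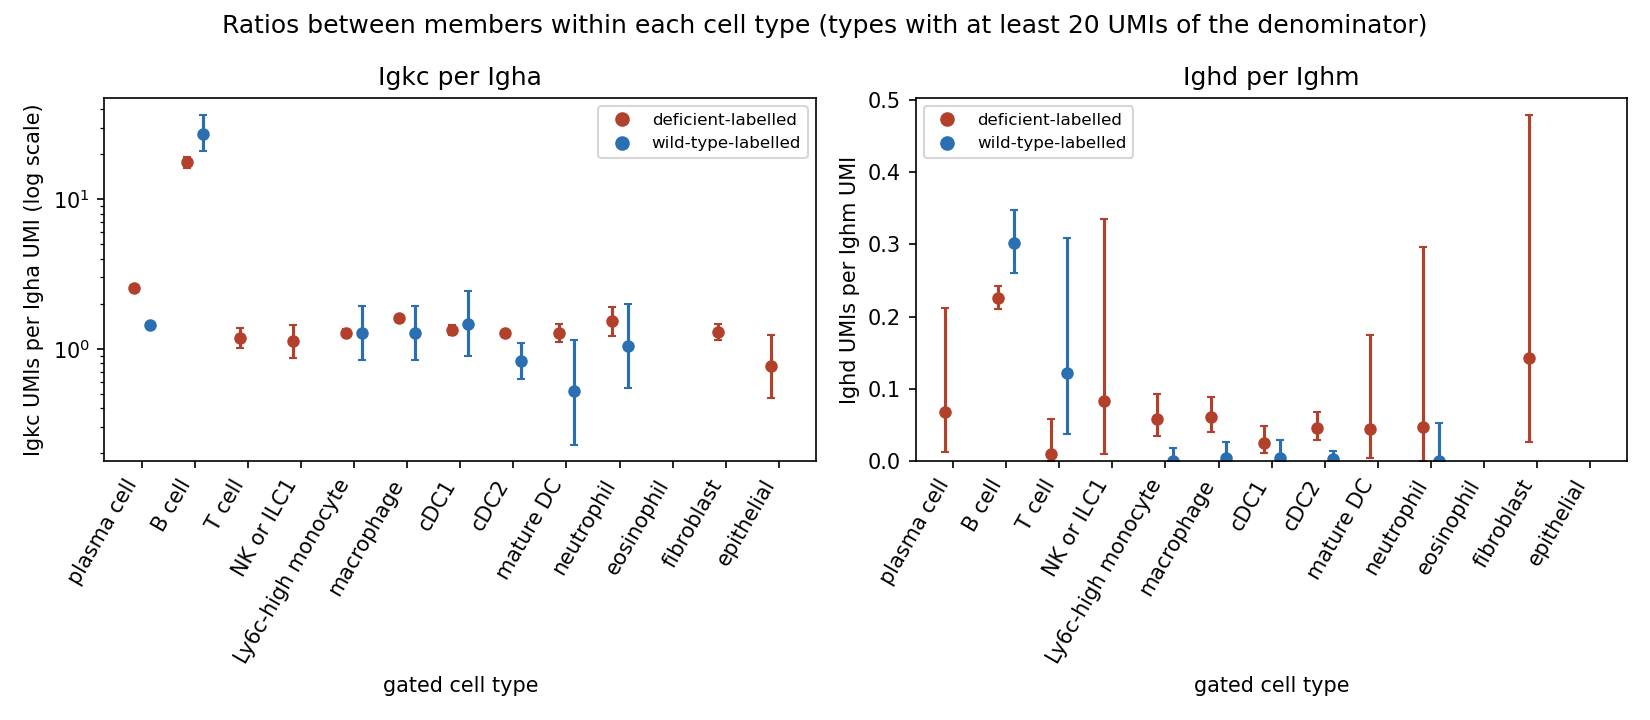
Igkc UMIs per Igha UMI (left, log scale) and Ighd UMIs per Ighm UMI (right) within each gated cell type, for types with at least 20 UMIs of the denominator, in the deficient-labelled library (red, drawn left in each pair) and the wild-type-labelled library (blue); bars are exact binomial 95% intervals. Igkc per Igha ran from 0.762 (epithelial) to 1.59 (macrophage) in the deficient-labelled types outside the B lineage, and Ighd per Ighm was highest in B cells, at 0.226 and 0.302.

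The genes of antibody secretion were mostly higher in plasma cells than in B cells. The plasma cell gate used Sdc1, Tnfrsf17, Mzb1, Derl3, Prdm1, Eaf2, Txndc5 and Fkbp11, and some of these belong to the secretory pathway too. This contrast is therefore tied to how the cells were chosen and is not an independent check of the gate. Of 17 secretory and unfolded-protein-response genes, all 17 were more than 1.5-fold higher in plasma cells than in B cells of the deficient-labelled library and 0 lower, where 7.98% of 5388 genes were higher and 75.0% lower. In the wild-type-labelled library 11 of the 13 measured were higher and 0 lower, where 11.5% of 1393 genes were higher and 68.6% lower. Xbp1, the transcription factor of the plasma cell secretory programme, was at 1367 CPM in plasma cells and 52.1 CPM in B cells of the deficient-labelled library, and at 1412 and 26.2 CPM in the wild-type-labelled library. The chaperone Hsp90b1 was at 2007 and 494 CPM in deficient-labelled plasma and B cells, and at 4088 and 497 CPM in wild-type-labelled plasma and B cells. For the chaperone Hspa5 the values were 1489 and 737 CPM, and 1412 and 945 CPM. Sec61b, of the translocation channel into the endoplasmic reticulum, was at 839 and 213 CPM, and at 1181 and 162 CPM. Outside the B lineage Hspa5 was at 1382 CPM in the deficient-labelled and 1406 CPM in the wild-type-labelled library, near its plasma cell CPM. There Sec61b was at 606 and 655 CPM, Hsp90b1 at 527 and 412 CPM and Xbp1 at 134 and 94.3 CPM. Plasma cell CPM count immunoglobulin UMIs in the denominator, a median of 57.1% and 53.1% of a cell's UMIs in the 2 libraries. Per non-immunoglobulin UMI the plasma cell levels of Hspa5 and the other genes would be higher, which was not computed. The counts of higher and lower genes use the same CPM.

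Some receptors for homing and for antibody had more CPM in plasma cells and others in B cells. Ccr10, a chemokine receptor of IgA plasma cells, was at 269 CPM in deficient-labelled and 175 CPM in wild-type-labelled plasma cells and had 0 UMIs in B cells of both libraries. Cxcr4, Mcl1 and Itga4, a chemokine receptor, a survival protein and an integrin chain, were at 102, 437 and 155 CPM in deficient-labelled plasma cells, against 941, 539 and 320 CPM in deficient-labelled B cells. The same genes were at 105, 356 and 238 CPM in wild-type-labelled plasma cells, against 1062, 594 and 228 CPM in wild-type-labelled B cells, so Itga4 was not lower in plasma cells there. Immunoglobulin UMIs are in these denominators and made up a median of 57.1% of a deficient-labelled and 53.1% of a wild-type-labelled plasma cell's UMIs. Whether Mcl1 and Itga4 would be lower in plasma cells per non-immunoglobulin UMI was not computed. Of the 9 homing and survival genes 8 were measured in the deficient-labelled library, 4 of them higher and 3 lower in plasma cells. Of 3 measured in the wild-type-labelled library 0 were higher and 2 lower. Over all genes measured in the same way, 7.98% were higher and 75.0% lower in plasma cells of the deficient-labelled library. In the wild-type-labelled library 11.5% of all genes were higher and 68.6% lower. Fcmr, the receptor for IgM, was at 322 CPM in deficient-labelled and 411 CPM in wild-type-labelled B cells and at no more than 1.03 CPM in plasma cells, and the low-affinity IgE receptor Fcer2a at 192 and 188 CPM in B cells and 0 in plasma cells. The inhibitory IgG receptor Fcgr2b was at 22.6 CPM in plasma cells and 86.2 in B cells of the deficient-labelled library, and at 0 and 52.3 CPM in the wild-type-labelled library. Fcer1g, a signalling chain shared by Fc receptors, was at 93.6 and 37.0 CPM in deficient-labelled and at 6.99 and 20.9 CPM in wild-type-labelled plasma and B cells. Outside the B lineage Fcer1g was far higher, at 826 CPM in the deficient-labelled and 836 CPM in the wild-type-labelled library. Of 11 immunoglobulin-binding and transport receptors 4 were measured in the deficient-labelled library, 1 higher and 3 lower in plasma cells. In the wild-type-labelled library 2 were measured, both lower. Beside the shares over all genes, these few counts do not set the antibody receptors apart.

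The counts in this paragraph stand beside the same shares over all genes. These were 7.98% higher and 75.0% lower in plasma cells of the deficient-labelled library, and 11.5% and 68.6% in the wild-type-labelled library. Of 9 genes of class switching and the germinal centre, 3 were measured in the deficient-labelled library, 1 higher and 2 lower in plasma cells. The 1 measured in the wild-type-labelled library was higher. The higher gene was Basp1, at 494 and 74.0 CPM in deficient-labelled plasma and B cells and at 657 and 15.7 CPM in wild-type-labelled plasma and B cells; outside the B lineage it was at 790 CPM in the deficient-labelled and 760 CPM in the wild-type-labelled library. Bcl6, a transcription factor of germinal centre B cells, was at 6.17 and 45.8 CPM, and at 0 and 26.2 CPM. The DNA repair enzymes Apex1 and Ung were at 36.5 and 15.1 CPM in deficient-labelled B cells and at 36.6 and 28.8 CPM in wild-type-labelled B cells. Of 8 ligands of the plasma cell niche only Tgfb1 and Il10 exceeded 5 CPM in plasma or B cells, with Tgfb1 at 455 CPM in deficient-labelled and 515 CPM in wild-type-labelled B cells and Il10 at 61.7 and 48.9 CPM in plasma cells. Both were measured in the deficient-labelled library, 1 higher and 1 lower in plasma cells, and 1 was measured and lower in the wild-type-labelled library. Outside the B lineage Il10 was at 334 CPM in the deficient-labelled and 194 CPM in the wild-type-labelled library, above its plasma cell levels. Its level in wild-type-labelled plasma cells rests on 7 UMIs. Of the other constant genes, Iglc2 and Iglc3 were measured and higher in plasma cells of both libraries, and Iglc4 had 2 UMIs in deficient-labelled plasma cells.

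Over 29 columns of gated types and libraries, the genes whose log2(CPM + 1) followed a member most closely were, for Igha, Ccr10 (Pearson r 0.83), Rnase2b (0.80) and Tg (0.78), and for Jchain the same 3 genes (0.87, 0.84 and 0.82). Ighd was followed by Fcmr (0.84), Cr2 (0.83) and Cecr2 (0.83), Ighm by Hvcn1 (0.78), Ffar1 (0.71) and Fcrl1 (0.70), and Igkc by Ly6d (0.84), Gm30211 (0.81) and Ccr10 (0.77). The columns share 2 libraries, and 13087 genes were compared, so these values describe the pattern only.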

How the data were processed

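The deposited matrices hold raw UMI counts per gene and barcode, with no normalization and no barcode under 500 UMIs. For the processing that the authors ran, the submitters' processing notes name Cell Ranger, STAR 2.5.1b and the mm10 build, and the file headers give software version 3.0.2. A barcode was kept if it had 200 genes, 500 UMIs and no more than 20% of UMIs from mitochondrial genes. Each was given the type with the highest mean log2(1 + UMIs per 10000 non-immunoglobulin UMIs) over its markers, with at least 3 markers found; barcodes whose next lineage scored above 0.6 of the best, or which lay outside the B lineage with 3 plasma or B cell markers, were set aside as mixed (393 deficient-labelled, 121 wild-type-labelled), and 602 and 475 had no type. Plasmacytoid dendritic cells were grouped with the B lineage in this rule, so their score never set a plasma or B cell barcode aside as mixed. Doublets were treated only as an alternative, since scrublet called 1 and 5 cells. Markers, members and lists were chosen with earlier results of these data known, and the gate's thresholds after the data were seen.

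CPM are sums over a class per 1000000 UMIs, with exact Poisson intervals; shares have Clopper-Pearson intervals and ratios exact binomial intervals, at 95%. A count of 0 was given a limit of 3 counts. The fold size used was 1.5, over genes with at least 50 UMIs in the class. Named were all 10 members, the 3 genes most like each of 5 members, up to 4 genes of each list with the highest CPM in plasma or B cells, and the 3 leading variable segments. The ratio and its interval were tested on simulated data. Tools were Python 3.11.15, scipy 1.17.1, pandas 2.3.3, scanpy 1.11.5 and Biopython 1.88. The value of 1 B cell marker is not reported here.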

Additional observations from a re-analysis of the deposited data

How the results depend on the processing

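Each of 42 values was recomputed under up to 13 other settings: of 382 recomputed values, 333 moved by less than their counting interval and 49 moved beyond it, and 3 of those log2 ratios changed sign, 1 of them from a difference of more than 1.5-fold. No value moved without a mitochondrial limit, with at least 1000 UMIs or without the shared barcodes. That one was the log2 ratio of Iglc1 in plasma cells, 1.24 in all cells and -1.99 without the highest cell of each library; under that setting Igha, Igkc and Jchain in plasma cells were -0.079, 0.86 and 0.47 and Igha in B cells 1.78. The other sign changes, of ratios within 1.5-fold, were Igha in plasma cells with CPM taken without immunoglobulin UMIs and Jchain in plasma cells with doublets removed. With CPM taken without immunoglobulin UMIs, the plasma cell log2 ratios of Igha, Igkc, Iglc1 and Jchain were 0.17, 0.99, 1.58 and 0.67. With clusters in place of the gate they were -0.34, 0.49, 0.75 and 0.15, those of Igha, Ighm, Igkc and Jchain outside the B lineage were 4.33, -0.073, 4.63 and 3.54, and in the deficient-labelled library plasma cells were 1.04%, B cells 9.71%, Igha outside the B lineage 299 CPM, Igha of heavy-chain UMIs in B cells 11.4%, Ighm in phagocytes 55.0 CPM, Ighd per Ighm there 0.0673, Igkc per Igha in plasma cells 2.56 and Jchain per Igha outside the B lineage 0.208. With doublets removed, which took 2 of 5 wild-type-labelled plasma cells, the plasma cell log2 ratios were -0.61, 0.29, 1.08 and -0.074, that of Igha in B cells was 1.85, and in the wild-type-labelled library Igkc per Igha was 1.36, Jchain per Igha 0.307 and Igha of heavy-chain UMIs in B cells 2.71%. With at least 4 markers, B cells were 7.52% of the deficient-labelled library and their Igkc log2 ratio was 0.52. When a call needed 80% of UMIs, Ighm and Ighd cells were 83.3% and lambda cells 0.626% of deficient-labelled B cells. As means over deficient-labelled cells, Igha was 12.9% of heavy-chain UMIs in B cells and 99.7% in plasma cells. Chosen after seeing the data were 3 settings: a runner-up ratio of 0.5 (plasma cell log2 ratios of Igha, Igkc and Iglc1 -0.14, 0.67 and 1.39), mixed barcodes added to the plasma cells (-0.31, 0.52, 0.85 and 0.18 for Igha, Igkc, Iglc1 and Jchain, and 2.57 Igkc per Igha in the deficient-labelled library), and plasma cells of at least 10000 UMIs (2.57 Igkc and 0.450 Jchain per Igha there). The cause of these shifts was not tested. No paired analysis was possible because each genotype had 1 library and the labels give no replicate numbers. The wild-type-labelled plasma cell values rest on 5 cells, and genes with few UMIs there could not be compared.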
